A study of Mus musculus with 11 samples.

Results

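Complement components in the aorta of old mice were examined as 8 genes: C1qa, C1qb, C1qc, C1s, C2, C3, C4b and Cfb. They were taken by gene name from all spots that were not control spots, and every probe of each gene was kept. These 8 of the 36413 names on the array had 9 of its 55681 probes and 27 of its 59305 spots. RNA came from the descending aorta of male C57BL/6 mice aged 20 months. Old nitrate treated mice (n = 5) drank water with 1 g/L NaNO3 for 8 weeks. For old control mice (n = 6) the labels give the agent as control and name no compound. The control arrays are labeled as earlier samples analyzed again, and the study's methods, but not the labels, describe sodium chloride for the controls. Each mouse was 1 one-color Agilent array, on which the brightness of a spot follows the amount of Cy3-labeled RNA that binds its probe.

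Complement is a cascade of plasma proteins and cell surface receptors that marks microbes, immune complexes and dying cells for removal. The classical pathway starts when C1q binds its target and activates the protease C1s, which cleaves C4 and C2 into the enzyme that splits C3. The alternative pathway splits C3 with an enzyme built from C3b and factor B, and factor D is the protease that activates factor B. The liver makes most circulating complement, whereas macrophages are a main source of C1q and fibroblasts, smooth muscle cells and adipocytes make several components locally.

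The probes for the C1q chains lay next to each other on chromosome 4, within 15.9 kb, and those of C2, Cfb and C4b lay within 134 kb on chromosome 17. Positions are those of the probes in the mouse build mm9, on the minus strand in each case: chr4:136452409-136452468 for C1qa, chr4:136436578-136436637 for C1qb, chr4:136445766-136445825 for C1qc, chr6:124480775-124480834 for C1s, chr17:34999575-34999634 for C2, chr17:34865328-34865387 for C4b and chr17:34993502-34993858 for Cfb. C3 had probes at chr17:57343416-57343475 and, as its second probe, at chr17:57343678-57343737. The Cfb probe of 60 bases spread over 357 genomic bases, so that it joined sequence from both sides of a gap. An exon or untranslated region was not assigned, as no mm9 annotation was used. The following probes are shown because they define what was measured for the first 2 C1q chains, for the second C3 probe and for Cfb, and each held at least 1 reading frame without a stop codon.
C1qa: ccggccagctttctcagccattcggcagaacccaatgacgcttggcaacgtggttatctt
C1qb: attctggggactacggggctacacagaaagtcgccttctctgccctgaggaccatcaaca
C3, second probe: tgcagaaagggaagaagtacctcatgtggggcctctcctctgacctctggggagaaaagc
Cfb: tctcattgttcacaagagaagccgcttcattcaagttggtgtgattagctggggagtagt

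C1s is listed as C1s1 in RefSeq, and its close copy C1s2 had no probe by that name. C4b has a near-identical copy, C4a, which was not named on the array either, so the C1s and C4b signals are uncertain to the extent that the transcripts of both copies bind the probe. Levels are log2 signals after quantile normalization, and they are compared between mice for 1 probe at a time, not between probes. A probe was detected on an array where it was found and well above background, and a gene is called detected below where a probe was so on at least 5 arrays of either group. All 9 probes of the members were detected on all 11 arrays.

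No complement component passed the test for a difference between old nitrate treated mice and old controls. A transcript was called at an unadjusted limma P value under 0.05 with a fold change above 1.2. By this rule 0 of the 9 probes were called, against 9.00% of the 23632 detected probes (4.16% higher and 4.85% lower in nitrate treated mice). The groups overlapped for all 9 probes, while 2.75% of detected probes had groups without overlap (1.61% higher and 1.14% lower in nitrate treated mice). With limma, 0 of the 9 probes had an unadjusted P value under 0.05, against 14.4% of all detected probes, and the Benjamini-Hochberg adjusted P values from limma lay between 0.555 and 0.954. On the log2 scale, the difference, nitrate minus control, was positive in 5 genes and negative in 3, with a median of 0.04 and a range from -0.11 to 0.18. With a mouse left out the median lay between -0.05 and 0.12, so its sign rested on single mice. Over all detected probes the median difference was 0.01, with quartiles of -0.10 and 0.11. In whole tissue, fewer cells of a type and less RNA per cell cannot be told apart.

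The array files place the 11 arrays on 3 slides, and nitrate and control arrays shared each slide. Column 3 of the slides held every control array and no nitrate array, so slide column and treatment cannot be told apart. The control arrays are those labeled as earlier samples, so that origin cannot be told apart from treatment either. Flagged spots numbered at most 186 per array, and no spot was saturated. All 9 smooth muscle markers were detected, and their differences were all positive, with a median of 0.15 on the log2 scale. Their mean log2 signal ranged from 14.06 to 14.34 in nitrate treated mice and from 13.72 to 14.13 in controls. Control 1 alone gave the low end, and the next lowest control was at 14.03. By the unadjusted rule Lmod1 rose (limma adjusted P = 0.285), as did 4.16% of all detected probes. Smtn, named after its values were seen, had groups without overlap but a fold change under 1.2. Groups without overlap, higher in nitrate treated mice, were found for 1.61% of all detected probes. The part of smooth muscle content in the complement signals was not tested. Heart muscle markers were high in nitrate 4 and control 1, at mean log2 signals of 12.53 and 11.95 against 6.45 to 9.18 in the other mice. Leaving out either mouse gave 0 called complement probes.

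C1qa, C1qb and C1qc code for the chains from which each C1q molecule, the sensor of the classical pathway, is assembled. The C1qa log2 signals were 10.24, 10.89, 10.88, 10.57 and 10.26 in nitrate 1 to 5, while controls ranged from 10.31 to 10.76 with a median of 10.48. Nitrate 2 and 3 were above every control and nitrate 1 and 5 below every control, so that the treated mice lay on both sides of the control range. The mean C1qa signal with nitrate, 10.57 ± 0.32 (SD, n = 5), was close to the control mean of 10.52 ± 0.19 (SD, n = 6). The difference of 0.05 ± 0.14 (SE) had a 95% confidence interval from -0.26 to 0.36, or 0.834-fold to 1.29-fold (limma adjusted P = 0.909, exact permutation P = 0.742).

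For C1qb the nitrate treated mice had log2 signals of 9.98, 10.58, 10.60, 10.08 and 9.80, and controls ranged from 10.04 to 10.39 with a median of 10.08. The same 4 treated mice fell outside the control range, and nitrate 4 lay within it. The difference was 0.06 ± 0.15 (SE, interval -0.26 to 0.38, limma adjusted P = 0.885). C1qc had log2 signals of 10.32, 11.01, 11.07, 10.83 and 10.36 in nitrate treated mice, and from 10.61 to 10.82 with a median of 10.65 in controls. In this chain nitrate 2, 3 and 4 were above all controls and nitrate 1 and 5 below them. The difference was 0.03 ± 0.14 (SE, interval -0.28 to 0.33, limma adjusted P = 0.954). The SD of C1qc was 0.36 in the treated mice and 0.10 in controls. The sign of these uncalled differences rested on single mice: without nitrate 2 they were -0.03 for C1qa, -0.03 for C1qb and -0.04 for C1qc, without nitrate 3 they were -0.03, -0.03 and -0.06, and without nitrate 4 that of C1qc was -0.000543. Within slides 1, 2 and 3 the differences were -0.05, 0.49 and -0.12 for C1qa, 0.06, 0.52 and -0.20 for C1qb, and -0.07, 0.46 and -0.13 for C1qc, where slide 2 held 1 nitrate and 2 control arrays.

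**Figure D1:**
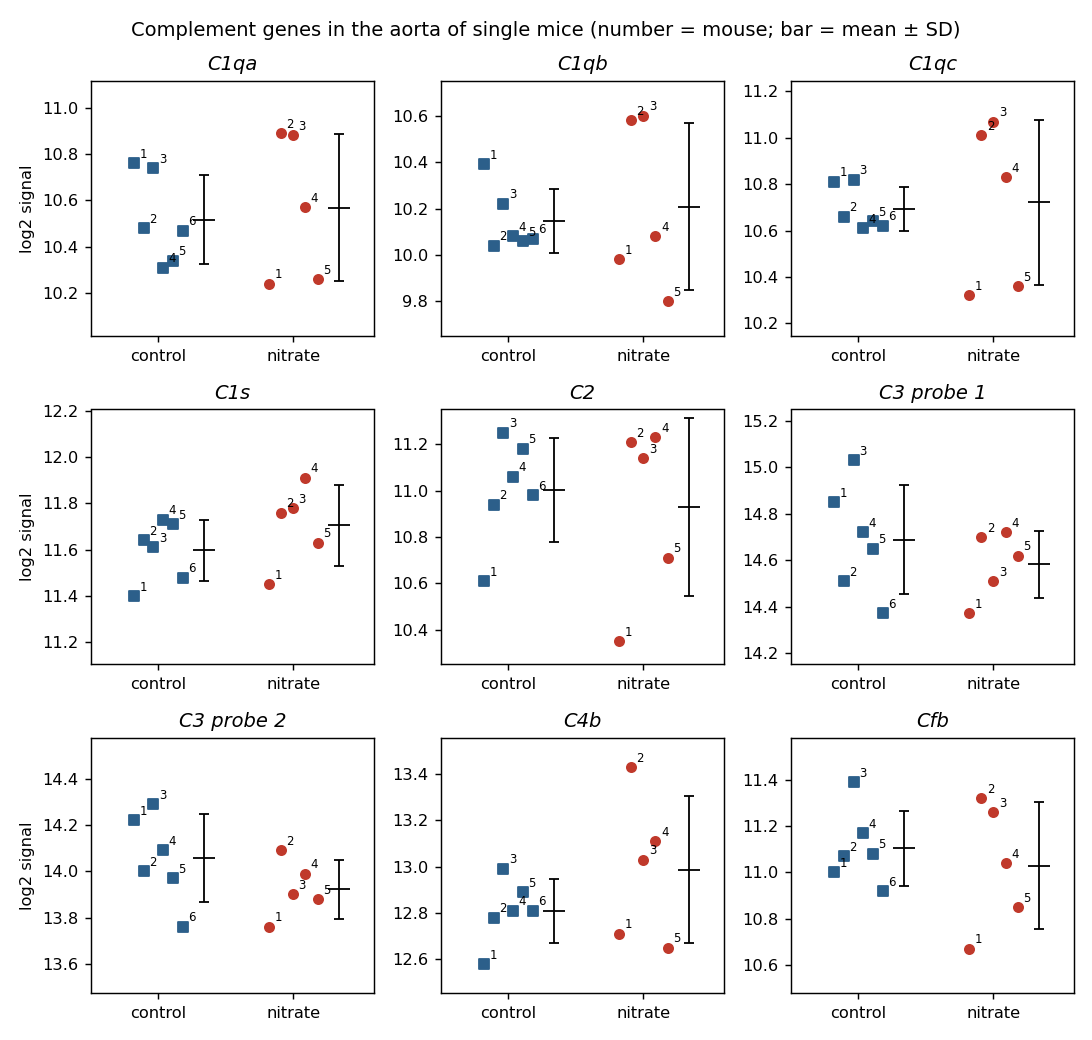
Log2 signal (vertical axis) of each complement probe in single mice, with control and nitrate treated mice on the horizontal axis, numbered by mouse, and a bar for the mean ± SD. For each of the 9 probes the points of the groups overlap, and for the C1q chains the treated mice spread to both sides of the controls.

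The C1qc probe was printed 10 times on each array, which shows the error between spots of 1 hybridization. The SD of its replicate spots within an array was 0.04 in the median array and 0.08 in the widest, with 5 spots flagged over all arrays. Between mice of a group the SD of the normalized values was 0.25. The brighter C3 probe also had 10 spots, with a median SD within an array of 0.03, no flagged spot and an SD of 0.20 between mice. Spots of 1 array share extraction, labeling and hybridization, so their SD leaves out the error of those steps. They were averaged into 1 value per mouse.

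**Figure D2:**
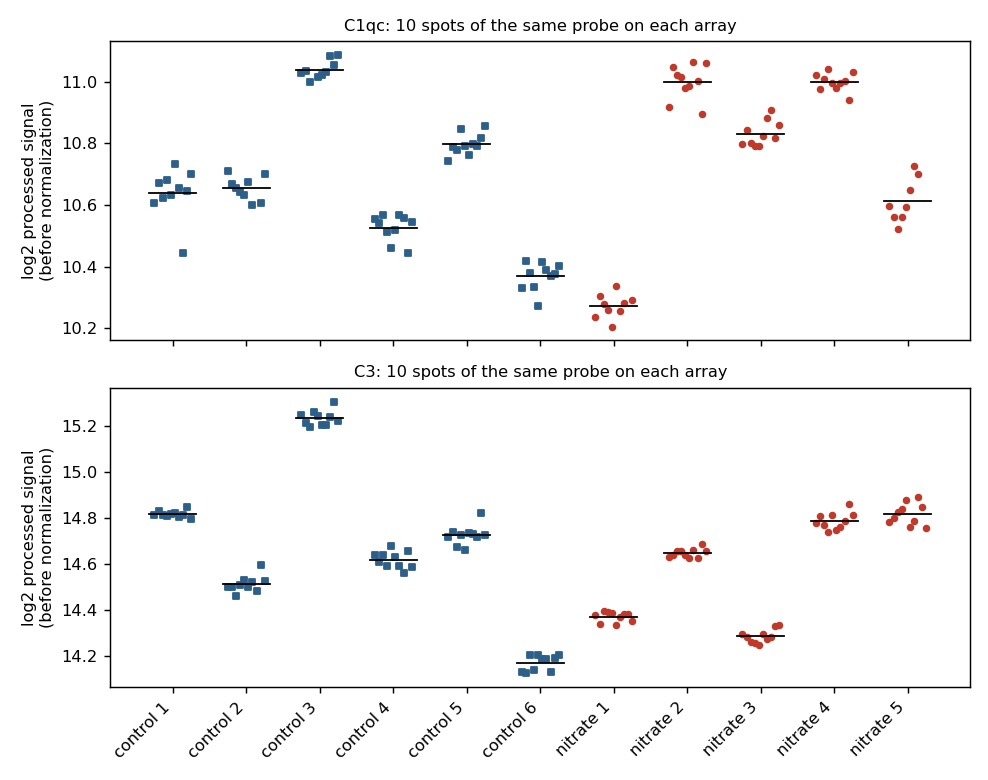
Log2 processed signal before normalization (vertical axis) of the 10 spots of the same probe on each array (horizontal axis, 1 mouse per array), for C1qc and C3. The spots of a mouse lie close together, with a within-array SD of at most 0.08 for C1qc and 0.05 for C3.

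The C1q chains varied together from mouse to mouse. Over the 11 mice C1qa and C1qb had r = 0.915 (permutation P = 3.0e-05, adjusted over 53 relations P = 0.000397; Spearman rho = 0.864, permutation P = 0.0011, adjusted P = 0.00833). C1qa and C1qc had r = 0.930 (permutation P = 1e-05, the smallest possible, adjusted P = 0.000177; rho = 0.945, permutation P = 3.0e-05, adjusted P = 0.000795). Without the 2 mice farthest from the median r was 0.836 and 0.865, and in the 6 controls alone it was 0.838 and 0.943. All chains of a mouse come from the same array and share its RNA and normalization. A slide held 3 or 4 arrays, too few for a correlation within slides.

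Macrophage markers varied in the same mice. Of 18 markers, which include the receptor of colony stimulating factor Csf1r and the scavenger receptor Cd163, 17 were detected (Cx3cr1 was not). In limma 0 were called, against 9.00% of all detected probes, and 0 had an unadjusted P value under 0.05, against 14.4%. The mean log2 signal of the 17 markers ranged from 8.48 to 9.14 in nitrate treated mice and from 8.60 to 9.00 in controls. Their median difference was 0.07, and 14 differences were positive and 3 negative. This mean signal was thus compared mouse by mouse. The mean was highest in nitrate 2 and 3 and lowest in nitrate 1 and nitrate 5. C1qa correlated with this mean at r = 0.959 (permutation P = 1e-05, adjusted P = 0.000177; rho = 0.982, permutation P = 1e-05, adjusted P = 0.00053), and r was 0.925 without the 2 farthest mice and 0.894 in controls. For C1qb and C1qc r was 0.933 and 0.927 (permutation P = 0.00012 and 1e-05). Whether the number of macrophages set the C1q signals was not tested.

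**Figure D3:**
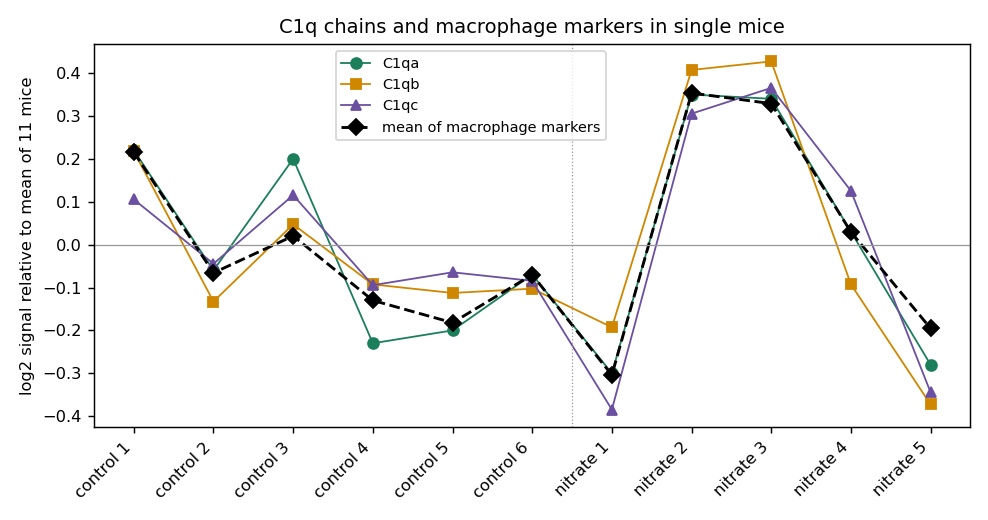
Log2 signal relative to the mean of the 11 mice (vertical axis) for C1qa, C1qb, C1qc and the mean of 17 macrophage markers (dashed line with diamonds) in each mouse (horizontal axis). All lines are high in nitrate 2 and 3 and low in nitrate 1 and 5, with Pearson r of 0.927 to 0.959 between a chain and the marker mean.

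As a description, the genes other than members whose profile was most like the mean of the C1q chains, after group means were removed, were Thbs1 (r = 0.954), Ccl6 (0.950), Pf4 (0.940), Ednrb (0.933) and Rgs10 (0.930), out of 12207 gene symbols over 11 arrays. The 250 bases before the transcript start are shown for C1qb and C1qc, since they moved together and RefSeq windows (GRCm38.p6) were given for both, at chr4:136886201-136886450 and chr4:136892915-136893164 on the minus strand. Capitals mark the letters GAGGAA on either strand, the core bound by PU.1, a transcription factor of myeloid cells. This match began 30 bases upstream of the C1qb start and 193 bases upstream of the C1qc start, where it is read as its reverse complement.
C1qb, promoter: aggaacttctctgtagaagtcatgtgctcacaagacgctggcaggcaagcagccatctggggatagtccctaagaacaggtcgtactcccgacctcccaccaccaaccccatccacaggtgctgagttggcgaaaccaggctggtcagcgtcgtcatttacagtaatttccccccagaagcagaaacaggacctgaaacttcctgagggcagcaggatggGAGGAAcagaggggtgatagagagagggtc
C1qc, promoter: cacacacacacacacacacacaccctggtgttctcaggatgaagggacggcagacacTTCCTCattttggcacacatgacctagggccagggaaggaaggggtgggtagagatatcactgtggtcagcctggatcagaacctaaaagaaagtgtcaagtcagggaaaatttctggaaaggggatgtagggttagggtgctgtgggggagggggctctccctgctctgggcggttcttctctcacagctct

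The same 6 letters occurred in 23.3% of all 32851 promoter windows, so that a match is common. Windows of C1s1 and C3 held no PU.1 match. None of the windows of C1qb, C1qc, C1s1 and C3 held the interferon-gamma element GAS (TTCNNNGAA, in 7.02% of all windows), the interferon element ISRE (2.98%), the NF-kB element (1.21%) or the C/EBP letters TTGCGCAA (0.164%), searched on both strands. C1qa, C2, C4b and Cfb had no window.

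C1s is the serine protease of the C1 complex that cleaves C4 and C2. Its log2 signals were 11.45, 11.76, 11.78, 11.91 and 11.63 in nitrate treated mice, and controls ranged from 11.40 to 11.73 with a median of 11.63. Nitrate 2, 3 and 4 lay above all controls and the other treated mice within the control range. The means were 11.71 ± 0.18 (SD, n = 5) and 11.60 ± 0.13 (SD, n = 6), with a difference of 0.11 ± 0.09 (SE, interval -0.10 to 0.31, limma adjusted P = 0.626, exact permutation P = 0.251). The difference was positive in each slide, at 0.08, 0.18 and 0.10, and it lay between 0.06 without nitrate 4 and 0.17 without nitrate 1.

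C4b is cleaved by C1s and then binds to the target surface. The treated mice had log2 signals of 12.71, 13.43, 13.03, 13.11 and 12.65, and controls ranged from 12.58 to 12.99 with a median of 12.81. Nitrate 2, 3 and 4 were again above every control, and nitrate 1 and 5 were below the control median. The means were 12.99 ± 0.32 (SD, n = 5) and 12.81 ± 0.14 (SD, n = 6). The difference of 0.18 ± 0.13 (SE) was the highest among the members with all mice, and its interval reached from -0.11 to 0.47, or 0.926-fold to 1.38-fold (limma adjusted P = 0.562, exact permutation P = 0.238). Within slides it was 0.39, 0.22 and -0.06. Without nitrate 2 it was 0.07, below the 0.09 of C1s without that mouse.

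Fibroblast markers varied with both genes. All 14 markers, among them the receptor Pdgfra and the matrix genes Dcn and Col1a1, were detected and had a positive difference. In limma 0 were called, against 9.00% of all detected probes. An unadjusted limma P value under 0.05 was found for 4 of the 14, against 14.4% of all detected probes. The mean log2 signal of the list ranged from 12.77 to 13.07 in nitrate treated mice and from 12.60 to 12.83 in controls. Control 1 held the low end of this list mean, and the next lowest control was at 12.77. C4b correlated with this mean at r = 0.872 (permutation P = 0.00053, adjusted P = 0.00351; rho = 0.773, permutation P = 0.00734, adjusted P = 0.0324), with r = 0.764 without the 2 farthest mice. C1s did so at r = 0.769 (permutation P = 0.00555, adjusted P = 0.0245; rho = 0.818, permutation P = 0.00349, adjusted P = 0.0214), with r = 0.683 without them. The part of fibroblast content in the C1s and C4b signals was not tested.

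C2 is the protease of the classical C3 convertase, and Cfb, factor B, has the same role in the alternative pathway. C2 had log2 signals of 10.35, 11.21, 11.14, 11.23 and 10.71 in nitrate treated mice and from 10.61 to 11.25 with a median of 11.02 in controls. Nitrate 1 was the lowest of the 11 mice, and the other treated mice lay within the control range. The difference was -0.07 ± 0.17 (SE, interval -0.44 to 0.29, limma adjusted P = 0.885).

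Cfb had log2 signals of 10.67, 11.32, 11.26, 11.04 and 10.85 in nitrate treated mice and from 10.92 to 11.39 with a median of 11.08 in controls. Nitrate 1 and 5 were below all controls and the other treated mice within their range. The difference was -0.08 ± 0.12 (SE, interval -0.35 to 0.20, limma adjusted P = 0.826). Without nitrate 1 the uncalled differences turned to 0.07 for C2 and 0.01 for Cfb. Within slides 1, 2 and 3 the differences were 0.01, 0.12 and -0.25 for C2 and -0.04, 0.22 and -0.29 for Cfb. The signals of both genes correlated over the mice at r = 0.826 (permutation P = 0.00114, adjusted P = 0.00671; rho = 0.782, permutation P = 0.0062, adjusted P = 0.0324), with r = 0.757 without the 2 farthest mice and 0.640 in controls. C2 and C4b, of the same cluster, correlated at r = 0.738 (permutation P = 0.00978, adjusted P = 0.037; rho = 0.882, permutation P = 0.00074, adjusted P = 0.0076; r = 0.983 in controls). Genes on different chromosomes correlated too, C1qc and Cfb at r = 0.810 (permutation P = 0.0028, adjusted P = 0.0135; rho = 0.691, permutation P = 0.0222, adjusted P = 0.0693; r = 0.433 in controls) and C1s and C2 at r = 0.755 (permutation P = 0.00629, adjusted P = 0.0256; rho = 0.645, permutation P = 0.037, adjusted P = 0.0938; r = 0.725 in controls).

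C3 is the component at which all pathways meet. Its first probe had log2 signals of 14.37, 14.70, 14.51, 14.72 and 14.62 in nitrate treated mice and from 14.37 to 15.03 with a median of 14.68 in controls. Nitrate 1 was level with the lowest control to the decimals given, the other treated mice lay within the control range, and controls 3 and 1 were the highest of the 11 mice. The means were 14.58 ± 0.15 (SD, n = 5) and 14.69 ± 0.23 (SD, n = 6), with a difference of -0.11 ± 0.12 (SE, interval -0.36 to 0.15, or 0.780-fold to 1.11-fold, limma adjusted P = 0.706, exact permutation P = 0.383).

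The second C3 probe gave a similar picture, with log2 signals of 13.76, 14.09, 13.90, 13.99 and 13.88 in nitrate treated mice and from 13.76 to 14.29 with a median of 14.05 in controls. The groups overlapped, and 4 of the 5 treated mice were below the control median. The difference was -0.14 ± 0.10 (SE, interval -0.35 to 0.08, limma adjusted P = 0.555). The C3 probes correlated at r = 0.935 over the mice (permutation P = 7.0e-05, adjusted P = 0.000742; rho = 0.909, permutation P = 0.00031, adjusted P = 0.00411), with r = 0.873 without the 2 farthest mice. Their difference was negative in each of the 3 slides, at -0.15, -0.04 and -0.17 for the first probe. Without control 3 the differences were -0.04 and -0.09 for the first and second probe, and without control 6 they were -0.17 and -0.19.

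**Figure D4:**
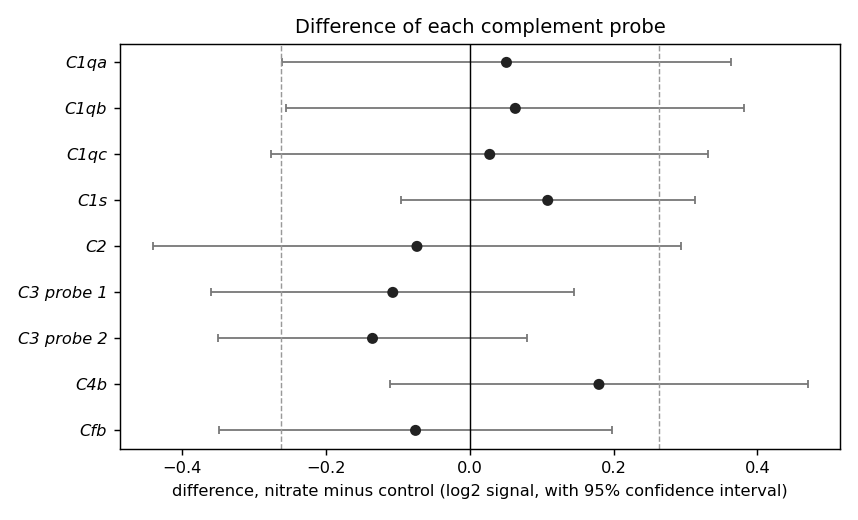
Difference, nitrate minus control, in log2 signal (horizontal axis) with its 95% confidence interval for the 9 complement probes (vertical axis), with dashed lines at a fold change of 1.2. Every interval includes 0, lies within 0.5 of it on the log2 scale and reaches past a dashed line on at least 1 side.

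C3 varied with adipocyte markers. Of 12 markers, all detected, 5 fell in nitrate treated mice by the unadjusted rule (Adipoq, Retn, Pparg, Lipe and Pnpla2; 4.85% of all detected probes did), and 0 had a limma adjusted P value under 0.05. The median difference over the list was -0.38, with 1 difference positive and 11 negative. For 3 of the 12 genes, Adipoq, Retn and Pparg, every treated mouse lay below every control, as in 1.14% of all detected probes. The mean log2 signal of the list was 12.69 to 13.18 in nitrate treated mice and 13.002 to 13.74 in controls. C3 correlated with this mean at r = 0.829 (permutation P = 0.00214, adjusted P = 0.0113; rho = 0.773, permutation P = 0.00733, adjusted P = 0.0324), with r = 0.656 without the 2 farthest mice and 0.903 in controls. For C1qa, C1qb and C1qc, r with the adipocyte mean was 0.330, 0.161 and 0.301 over all mice (permutation P = 0.322, 0.643 and 0.367), but 0.808, 0.885 and 0.932 in controls and 0.825, 0.787 and 0.792 without the 2 farthest mice. The part of fat tissue in the C3 signal was not tested. As a description, the genes other than members most like C3 over the 11 arrays after group means were removed were Lap3 (r = 0.975), Hfe (0.969), Ttc13 (0.949), Ppp1ca (0.948) and Ormdl2 (0.943). Of the 6 hepatocyte markers Alb, Apoa1, Ttr and Fgb were not detected. Serpina1a and Ahsg rose by 0.46 and 0.31 on the log2 scale by the unadjusted rule (limma adjusted P = 0.318 and 0.333). By the same rule 4.16% of all detected probes were called higher.

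The 95% confidence intervals of all 9 member probes lay within 0.5 of 0 on the log2 scale, and 0 of them lay within the log2 of 1.2, which is 0.263. A change of 1.2-fold was thus not excluded for any member, and the highest and lowest fold bounds were 1.38 for C4b and 0.737 for C2.

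Other genes of the complement system were described from a list of 44, of which 42 were named on the array and 25 were detected. By the unadjusted rule 4 of these 25 fell (16%, against 4.85% of all detected probes) and 0 were called higher (against 4.16%). In limma 0 of the 25 had an adjusted P value under 0.05. An unadjusted limma P value under 0.05 was found for 4 (16%), close to the 14.4% of all detected probes. Without nitrate 4, nitrate 5 or control 5, 1 was called higher. The median difference was 0.02, with a range from -0.63 to 0.45, and 13 differences were positive and 12 negative. Groups overlapped for all 25 genes, while 2.75% of all detected probes had groups without overlap.

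Among the initiators, 4 of 10 named genes were detected and 0 were called. The mannose-binding lectins Mbl1 and Mbl2 and their proteases Masp1 and Masp2 were not detected, nor were Fcnb and Colec10. C1ra, the protease that activates C1s and the gene with the brightest probe of this group, had a difference of 0.02 (limma adjusted P = 0.938), and its other probe one of 0.18 (limma adjusted P = 0.431).

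In the alternative pathway, Cfd, factor D or adipsin, fell and Cfp, the stabilizer properdin, was not called, while C5 (named Hc) was not detected. The Cfd probe at chr10:79355302-79355361 had log2 signals of 16.56, 17.08, 16.88, 16.89 and 16.49 in nitrate treated mice and from 16.96 to 17.42 with a median of 17.03 in controls. Nitrate 2 lay within the control range and the other treated mice below it. Cfd was detected on 5 of 6 control arrays, and it was not tested under a rule that asked for detection on all 11. The difference was -0.31 ± 0.12 (SE), with a limma adjusted P = 0.295 and an exact permutation P = 0.026. The unadjusted limma P value was 0.0248, and it rose to 0.0675 without nitrate 1, 0.0702 without nitrate 5 and 0.052 without control 3, with differences of -0.25, -0.24 and -0.24. Adipocyte markers moved the same way, as given for C3, and their part in the Cfd value was not tested.

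Of the terminal components, which build the membrane attack complex, C7 and C8g were detected, and C8a, C8b and C9 were not. C6 was detected on 4 of 5 nitrate and 4 of 6 control arrays and so was not tested. C8g, the gamma chain of C8, had log2 signals of 7.94, 8.01, 8.12, 8.55 and 8.46 in nitrate treated mice and from 8.49 to 9.07 with a median of 8.59 in controls. All but nitrate 4 lay below every control. C8g fell by 0.50 ± 0.15 (SE) on the log2 scale (chr2:25354176-25354235, limma adjusted P = 0.212, exact permutation P = 0.0195). Its other probe had a difference of -0.22 and a fold change under 1.2.

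Of the 4 detected regulators in plasma on the list, Vtn fell and Serping1, Clu and Cpn2 were not called. Vtn, vitronectin, binds the terminal complex in plasma and is also a matrix protein. Its log2 signals were 6.37, 6.17, 6.71, 6.67 and 6.12 in nitrate treated mice and from 6.67 to 7.58 with a median of 6.97 in controls. Nitrate 3 lay just above the lowest control, nitrate 4 was level with it to the decimals given, and the other treated mice lay below all controls. Vtn fell by 0.63 ± 0.17 (SE) on the log2 scale (chr11:78315393-78315665, limma adjusted P = 0.182, exact permutation P = 0.00649), and by 0.39 with normexp background correction. Clu, clusterin, with the brightest probe of these regulators, had a difference of 0.24 ± 0.13 (SE, limma adjusted P = 0.406). Cfi, the protease that cleaves C4b and C3b, C4bp, a cofactor that binds C4b, and Cpn1 were not detected.

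None of the 3 detected membrane regulators was called, and Cr1l, the mouse regulator also known as Crry and with the brightest probe of them, had a difference of 0.05 (limma adjusted P = 0.763). Cd46 was not detected. Cd55, on 4 nitrate and 4 control arrays, and Cd59b, on 3 and 4, fell short of the number of arrays needed for the test. Of 10 receptors, all detected, 1 was called. Itgam, a chain of complement receptor CR3, had the brightest probe of them. Its 3 probes had differences of 0.11, 0.17 and -0.08, and none was called. In controls these probes had mean log2 signals of 14.73, 5.99 and 5.62, so the level of Itgam itself is uncertain. Cd93, a receptor of endothelial and myeloid cells once described as a C1q receptor, had log2 signals of 11.19, 11.09, 11.36, 11.48 and 11.32 in nitrate treated mice and from 11.46 to 11.82 with a median of 11.61 in controls. All but nitrate 4 lay below every control. Cd93 fell by 0.33 ± 0.09 (SE) on the log2 scale (chr2:148262436-148262495, limma adjusted P = 0.196, exact permutation P = 0.013). Of 10 endothelial markers, all detected, 0 were called in limma, against 9.00% of all detected probes. Their differences were positive in 4 and negative in 6, with a median of -0.10. The range was from -0.35 for Cldn5 to 0.22 for Vwf, and both genes were named after their values were seen. Vwf alone had an unadjusted limma P value under 0.05, against 14.4% of all detected probes.

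**Figure D5:**
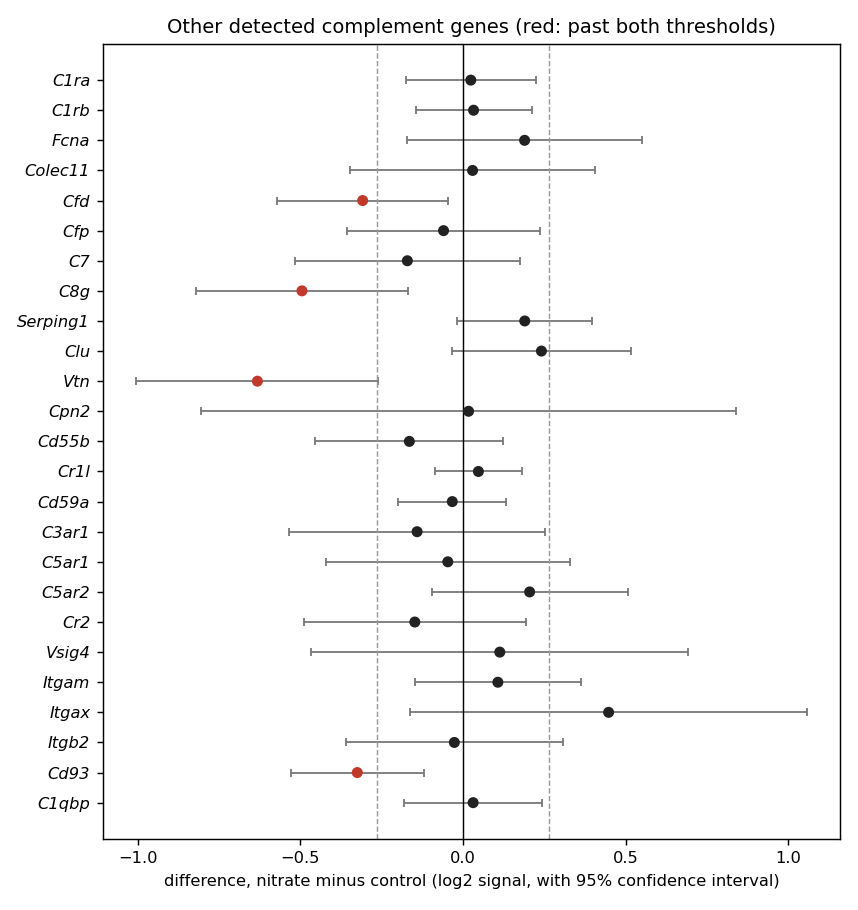
Difference, nitrate minus control, in log2 signal (horizontal axis) with its 95% confidence interval for the 25 other complement genes described (vertical axis), with dashed lines at a fold change of 1.2. Red marks the genes past both the P value and the fold threshold, Cfd, C8g, Vtn and Cd93, all to the left of 0.

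Of 22 genes induced by interferon or in the acute phase response, 15 were detected. By the unadjusted rule Ifit3, an interferon-induced gene, rose by 0.74 on the log2 scale, and Socs3, an inhibitor of cytokine signaling, and Orm1, an acute phase protein gene, fell by 0.35 and 0.78. Of all detected probes 4.16% were called higher and 4.85% lower. The median difference of the list was -0.14, and in limma 0 of the 15 had an adjusted P value under 0.05. Of 9 B and T cell markers 4 were detected. Cd79b of the B cell receptor fell by 0.81 on the log2 scale by the unadjusted rule (limma adjusted P = 0.221). Of these 4 differences 2 were positive and 2 negative, with a median of -0.04.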

How the data were processed

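Aortic RNA of 11 old mice, 5 with nitrate and 6 controls, was hybridized to one-color arrays. Per the file headers, Feature Extraction 10.7.1.1 made the spot intensities that the authors deposited, with the local background already taken off and no scaling across arrays. The authors also deposited log2 values, which were quantile normalized and centered on the median over the arrays. On every array these correlated with the values used here at r = 1 (to 3 digits). Every column was matched to a sample.

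Processed signals below 1 were set to 1 before taking log2. Control spots and spots with an outlier flag were removed, replicate spots averaged per probe, and all arrays quantile normalized. A probe was detected on an array if found and well above background, and it was tested if detected on 5 or more arrays of one group. Tests used limma 3.58.1 in R 4.3.3 (lmFit, eBayes). As in the study's methods, a call needed both a fold change above 1.2 and an unadjusted P value under 0.05, and Benjamini-Hochberg adjusted values over all 23632 probes are given beside it. Single probes also had a two-sided exact permutation test, which over 462 divisions of the mice cannot give a P value below 0.00216. Correlations used 100000 permutations and were adjusted over 53 relations. Intervals are at 95%.

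All probes of the 8 members are given. Of the other complement genes, those called and the brightest of each group are named. A gene with several detected probes was counted by the brightest. Some genes of the complement system are not reported here and are left out of the counts of other complement genes. The members and gene lists were chosen with earlier results of these data known. Gene names and probe positions (mm9) are those of the files, and promoters are from RefSeq GRCm38.p6, with windows found for 4 of the 8 members.

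The fit was tested on simulated data for this comparison with 23617 probes. It found 100% of known changes of 1 log2 and 85% of those of 0.5 log2, while 5.12% of probes without a change had a P value under 0.05. Alternatives were another normalization, another background correction, a signal offset of 16, the authors' log2 table, other rules for detection and flagged spots, slide or replicate number as blocks, values within slides, and each array left out. The number of arrays limits the precision.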

Additional observations from a re-analysis of the deposited data

Results flagged for a closer look

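A single mouse stood apart within its group in 4 of 42 groups examined, where chance gives about 1 in 20, or 2.1 groups. For Cfd, control 3 was high at 17.42 against 17.11 in the nearest control, a gap of 0.678 of the range of the controls. For the mean of the fibroblast markers, control 1 was low at 12.6 against 12.77 (0.76 of the range), and for the mean of the smooth muscle markers it was low at 13.72 against 14.03 (0.763). For the mean of the heart muscle markers, control 1 was high at 11.95 against 8.36 (0.652). None of the 8 members was among these groups.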

How the results depend on the processing

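No complement probe was called under any of the 21 alternatives with a test, including each mouse left out in turn. The median difference over the 8 genes was 0.04 and lay between -0.05 and 0.12 when a mouse was left out. Uncalled differences changed sign when a mouse was left out, as follows. Without nitrate replicate 1, C2 was at 0.0703 and Cfb at 0.0136. Without nitrate replicate 2, C1qa was at -0.0292, C1qb at -0.029 and C1qc at -0.0447, and without nitrate replicate 3 at -0.0275, -0.0342 and -0.0602. Without nitrate replicate 4, C1qc was at -0.000543. With any 1 mouse left out, the highest values were 0.133 for C1qa, 0.165 for C1qb and 0.127 for C1qc, and the lowest were -0.152 for C2 and -0.149 for Cfb. Within slides the sign also differed from the main one for C1qa (slides 1 and 3, -0.0546 and -0.124), C1qb (slide 3, -0.199), C1qc (slides 1 and 3, -0.0692 and -0.132), C2 (slides 1 and 2, 0.00941 and 0.121), C4b (slide 3, -0.0559) and Cfb (slide 2, 0.223). With any 1 mouse left out C1s lay between 0.0576 and 0.173, C4b between 0.0689 and 0.263 and the first C3 probe between -0.17 and -0.0396. The cause was not tested.

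Of the other complement genes 4 were called, all lower, and 3 to 5 when a mouse was left out, with 0 to 1 higher and 3 to 4 lower. With detection on all 11 arrays required, 3 were called and Cfd was not tested. Vtn was at -0.392 with normexp background correction, against -0.632. Over all detected probes 2128 were called, against 1218 with normexp background correction, 3224 without the detection filter, where more probes were tested, and 1596 to 2424 with a mouse left out. With the replicate number as a block, 0 probes of the members, 4 other complement genes and 2433 probes were called. Mice of the same number did not deviate together (correlations between -0.137 and 0.18), so the numbers were not read as pairs. With 5 and 6 arrays, no member had a 95% interval that lay within a 1.2-fold change.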
